A study of Mus musculus with 36 samples.

Results

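Meis1, Meis2, Pbx2 and Pbx3 encode homeodomain proteins of the TALE class, named for an extended loop in the homeodomain, which bind DNA together with Hox proteins. They were taken as a gene group by name, 4 of the 19057 gene symbols on the array, with all probes that the array annotation assigns to them, 13 of the 45281 on the array: 3 for Meis1, 4 for Meis2, 3 for Pbx2 and 3 for Pbx3. A probe was tested where it was detected (detection p under 0.05) on at least 3 arrays, which held for 12 of the 13 and for 23999 probes in all. The remaining one, Pbx3 ILMN_2650972, was detected on 2 of 36 arrays and was not tested.

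The cells were mouse EpiSC, epiblast stem cells, a pluripotent line type with the traits of the implanted embryo's epiblast, and their total RNA was measured on 36 bead arrays. Without retinoic acid (RA), 13 arrays had Mock (basal medium) for 36 h combined with 24 h of 1 of 10 compounds, of Mock (1 array) or of CM, medium conditioned by mouse embryonic fibroblasts (2 arrays). In the RA 24 h schedule, 12 arrays had 5 µM RA for 24 h and a compound, Mock (1 array) or CM (1 array) for 36 h. In the RA 36 h schedule, 11 arrays had 5 µM RA for 36 h and a compound or Mock (1 array) for 24 h. Each schedule held 1 array each of Rapamycin (100 nM), PF573228 (250 nM), Dorsomorphin dihydrochloride (2 µM), BAY 11-7082 (25 µM), Forskolin (50 µM), BAPTA-AM (10 µM), Docetaxel (500 pM), Wortmannin (50 nM), Purmorphamine (2 µM) and SU5402 (2 µM). Before treatment all cells grew in fibroblast-conditioned medium with bFGF and Activin, per the labels. The general protocol in the labels gives compounds for 36 h and morphogens for 24 h for all samples. The schedules used here follow the sample descriptions, which differ from it. The order of the agents, and whether CM as a treatment held bFGF and Activin, are not given. Whether the arrays of a schedule stem from separate cultures is not given in the labels. With 1 array per compound and schedule, arrays of different treatments stand in for replicates of a schedule. The p-values therefore cover only the spread between these arrays, in which treatment and technical differences cannot be told apart. Mean raw intensity per array was between 336 and 692.5, and 37.1% to 43.1% of probes were detected.

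Pbx proteins bind DNA with Hox proteins and raise their sequence selectivity, and Meis proteins join these complexes, bind Pbx through a domain outside the homeodomain and promote its entry into the nucleus. In the vertebrate hindbrain, Hox, Pbx and Meis proteins act together on enhancers of Hox genes. Meis1 and Meis2 are known as RA-responsive genes in limb and neural tissue, whereas Pbx genes are expressed more broadly. The labelled cell type could be checked against 9 epiblast markers, Pou5f1 and Nanog among them. All 9 were detected on every array without RA, with a summed linear level of 38388 to 52961, against 3573 to 10692 with RA for 24 h and 4477 to 6666 with RA for 36 h.

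Promoter sequences of the 3 genes found in RefSeq's table are shown because Meis1 and Meis2, and to a lesser extent Pbx2, moved together with RA. Each is from RefSeq on GRCm38.p6, 250 bases before to 50 bases after the annotated start, written 5′ to 3′ on the gene's strand, with CpG dinucleotides in capitals. The windows are chr11:19018920-19019219 (minus strand) for Meis1, chr2:116064570-116064869 (minus strand) for Meis2 and chr17:34592009-34592308 (plus strand) for Pbx2. The annotated loci of Meis1 and Meis2 run further upstream, to chr11:19019651 and chr2:116067537. The starts used for these genes therefore lie inside their loci, and the outermost starts are not shown. The Pbx2 locus begins at chr17:34592259, within its window.
Meis1: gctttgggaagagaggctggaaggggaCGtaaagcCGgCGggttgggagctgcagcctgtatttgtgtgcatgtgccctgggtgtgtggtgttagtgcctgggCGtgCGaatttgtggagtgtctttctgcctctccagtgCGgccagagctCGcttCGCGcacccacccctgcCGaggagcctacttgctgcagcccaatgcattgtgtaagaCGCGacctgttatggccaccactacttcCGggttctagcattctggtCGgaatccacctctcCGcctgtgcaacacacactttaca
Meis2: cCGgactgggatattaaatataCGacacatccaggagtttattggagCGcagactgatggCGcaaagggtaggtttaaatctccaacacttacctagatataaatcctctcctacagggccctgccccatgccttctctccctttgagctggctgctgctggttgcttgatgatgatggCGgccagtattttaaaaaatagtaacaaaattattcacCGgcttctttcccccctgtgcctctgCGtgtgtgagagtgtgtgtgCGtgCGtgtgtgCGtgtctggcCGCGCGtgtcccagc
Pbx2: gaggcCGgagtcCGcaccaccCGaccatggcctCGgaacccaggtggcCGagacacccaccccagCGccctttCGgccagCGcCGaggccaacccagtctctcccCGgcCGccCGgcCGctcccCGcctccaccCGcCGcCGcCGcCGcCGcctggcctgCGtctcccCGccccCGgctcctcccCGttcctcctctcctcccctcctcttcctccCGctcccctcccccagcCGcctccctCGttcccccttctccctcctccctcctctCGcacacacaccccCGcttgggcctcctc
The GC content was 58.3% for Meis1, 51% for Meis2 and 76% for Pbx2, against a median of 52.7% over 32841 promoters of the same length. These windows held 15, 13 and 29 CpG dinucleotides, against a median of 7. No window held the core element AGGTCA of RA receptors, the Meis motif TGACAG or the Hox and Pbx motif TGATNNAT on either strand, with any overlap allowed. Those motifs occurred in 16.3%, 19.2% and 8.85% of all promoters. Pbx3, at chr2:34171457-34372045, is named only.

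Meis1 had the largest RA response of the 4 genes. Its brightest probe, ILMN_1218266, had log2 levels of 4.91 at the lowest, 5.72 at the median and 6.86 at the highest over the 13 arrays without RA. With RA for 24 h (12 arrays) the same values were 10.38, 10.66 and 11.87, and with RA for 36 h (11 arrays) 11.21, 11.27 and 11.65. The arrays without RA did not overlap with either RA schedule. Among the arrays without RA, Docetaxel was the highest, and both CM arrays and the Dorsomorphin dihydrochloride array were below detection. In the additive fit of schedule and treatment over all arrays, Meis1 rose by 5.58 ± 0.18 (SE) on the log2 scale with RA for 36 h against no RA, a 47.8-fold difference (limma, Benjamini-Hochberg adjusted p = 9.62e-20). With RA for 24 h it rose by 5.02 ± 0.17, or 32.5-fold (limma, adjusted p = 3.41e-19). The rise was seen in all 11 matched treatments of both schedules. In the authors' deposited table of log2 values the same contrasts were 3.02 and 2.47, still called.

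The other Meis1 probes had the same direction where they were measurable. ILMN_1248401 was detected on none of the 13 arrays without RA and on all 23 arrays with RA, and its level was at least 7.79-fold higher with RA for 36 h and at least 5.1-fold higher with RA for 24 h. These lower bounds set the detection limit of each dim array in place of an undetected value. The dim probe ILMN_1218217 was detected on 10 of 11 arrays with RA for 36 h, on 3 of 12 with RA for 24 h and on none without RA. It rose by 0.72 with RA for 36 h (limma, adjusted p = 3.22e-06), with an untested bound of at least 1.13-fold, and gave 0.13 with RA for 24 h, which did not pass. Over the 36 arrays, the 2 brighter probes had a Pearson r of 0.979 as a description of arrays that share their schedules.

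Meis2 was detected without RA and rose further with it. Its brightest probe, ILMN_2850391, was detected on all 36 arrays and had log2 levels of 7.29, 10.82 and 11.33 (lowest, median, highest) without RA, 11.93, 12.41 and 12.77 with RA for 24 h, and 11.79, 11.96 and 12.19 with RA for 36 h. No array without RA reached the lowest array with RA, and the low end without RA was formed by the 2 CM arrays alone, since the other 11 arrays lay between 10.33 and 11.33. Meis2 rose by 1.23 ± 0.21 (SE) with RA for 36 h, or 2.34-fold (limma, adjusted p = 1.73e-05), and by 1.84 ± 0.20 with RA for 24 h, or 3.57-fold (limma, adjusted p = 1.49e-08). These fits include the CM arrays. Over the compound and Mock arrays alone the mean levels were 10.885 without RA, 12.39 with RA for 24 h and 11.946 with RA for 36 h, which are smaller differences than those fitted. All 11 matched treatments were higher with RA in both schedules, by 0.51 (PF573228) to 1.82 (Docetaxel) at 36 h and by 1.11 (Mock) to 2.02 (Docetaxel) at 24 h.

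Both other bright Meis2 probes rose as well. ILMN_2774121 had median log2 levels of 8.48 without RA, 9.82 with RA for 24 h and 10.45 with RA for 36 h, and rose by 1.64 ± 0.23 at 24 h and by 1.92 ± 0.24 at 36 h. ILMN_1232525 had medians of 7.44, 9.01 and 8.52 in the same order and rose by 1.89 ± 0.19 at 24 h and 1.25 ± 0.20 at 36 h. Over the compound and Mock arrays alone the means in that order were 8.682, 9.979 and 10.429 for ILMN_2774121. For ILMN_1232525 they were 7.422, 8.988 and 8.512, and for both probes these differences are smaller than those fitted. The median of ILMN_2774121 was higher with RA for 36 h, whereas those of the other bright probes were higher with RA for 24 h. The fourth probe, ILMN_1215821, was detected on 5 of 36 arrays, gave 0.17 at 36 h and 0.14 at 24 h, and did not pass.

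Pbx2 rose by about the same factor in both schedules. Its brightest probe, ILMN_2916489, had log2 levels of 7.37, 7.67 and 8.0 (lowest, median, highest) without RA, 8.47, 8.66 and 8.81 with RA for 24 h, and 8.31, 8.51 and 8.85 with RA for 36 h. The levels with and without RA did not overlap, and the 2 highest arrays without RA were those of CM. The rise was 1.01 ± 0.06 (SE) at 24 h, or 2.02-fold (limma, adjusted p = 1.91e-14), and 0.89 ± 0.06 at 36 h, or 1.86-fold (limma, adjusted p = 5.2e-13). A second probe, ILMN_2599858, rose by 0.99 ± 0.07 at 24 h and 0.80 ± 0.07 at 36 h. The dimmer ILMN_1248852, detected on 30 of 36 arrays, passed narrowly at 36 h (0.40 ± 0.17, limma adjusted p = 0.0465) and did not pass at 24 h (0.36 ± 0.16, limma adjusted p = 0.0558). In the deposited log2 values of the authors ILMN_2916489 gave 0.45 at 24 h and 0.40 at 36 h, both called.

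Pbx3 moved little and in the other direction. ILMN_2642148 had log2 levels of 8.06, 8.26 and 8.62 (lowest, median, highest) without RA, 7.98, 8.36 and 8.54 with RA for 24 h, and 7.81, 7.94 and 8.28 with RA for 36 h, and all 3 ranges overlap. It fell by 0.29 ± 0.08 (SE) at 36 h, to 0.815 of the level without RA (limma, adjusted p = 0.00392), with 10 of 11 matched treatments lower and SU5402 higher. ILMN_2642147 fell by 0.32 ± 0.12 at 36 h (limma, adjusted p = 0.0256), also lower in 10 of 11 treatments. The authors' deposited log2 values gave -0.14 for ILMN_2642148 at 36 h, still called. At 24 h the changes of 0.01 ± 0.08 and -0.15 ± 0.11 did not pass.

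**Figure D1:**
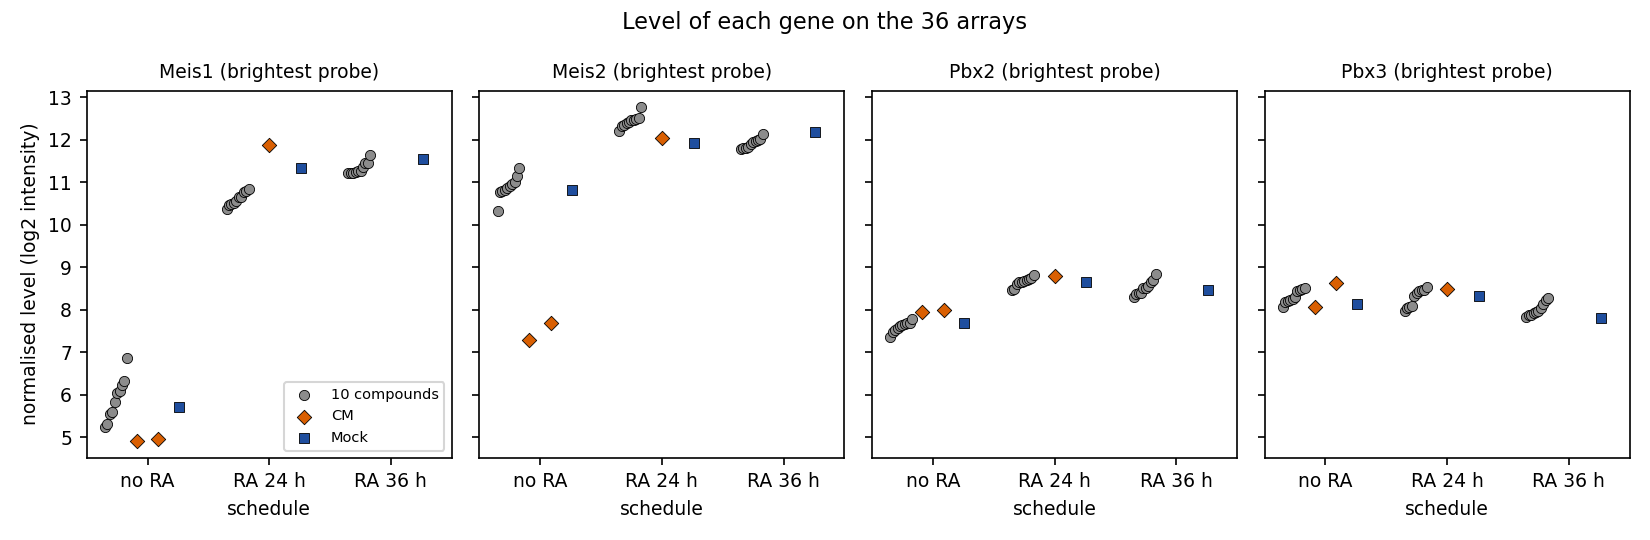
Normalised log2 level (y axis) of the brightest probe of Meis1, Meis2, Pbx2 and Pbx3 on each of the 36 arrays, by schedule (x axis). Grey circles are the 10 compounds, orange diamonds CM and blue squares Mock. Meis1 lies between 4.91 and 6.86 without RA and between 10.38 and 11.87 with RA, and the 2 CM arrays without RA stand below all others for Meis2.

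In all, 11 of the 12 tested probes passed for RA 36 h against no RA, 9 higher and 2 lower. Over all 23999 tested probes, 26% were called higher and 29% lower in that contrast. Meis1 ILMN_1248401 and ILMN_1218217, both called higher, and Meis2 ILMN_1215821, not called, were detected on no array without RA. They met the detection filter only through arrays with RA, which favours calls as higher. For RA 24 h against no RA, 7 of the 12 passed, all of them higher, where 28.3% of all tested probes were called higher and 32% lower. These contrasts share the arrays without RA. Time with a compound, Mock or CM was 36 h in the RA 24 h schedule and 24 h without RA. For RA 24 h against no RA, RA and that time therefore cannot be told apart.

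Schedule and slide were nearly the same split, since 5 of the 6 slides held 1 schedule each. Slide 2 alone was mixed, with 5 compound arrays of the RA 36 h schedule and the Mock array of the schedule without RA. Within slide 2, these compound arrays had 11.32 ± 0.12 (SD, n = 5) for Meis1 against 5.72 on the Mock array, and 11.92 ± 0.14 for Meis2 against 10.82. The Pbx2 levels were 8.65 ± 0.14 against 7.70, and the Pbx3 levels 8.01 ± 0.19 against 8.13. The within-slide differences of 5.60, 1.097 and 0.95 for Meis1, Meis2 and Pbx2 are larger than the spread of those compound arrays, and that of -0.12 for Pbx3 is not. A fit with a fixed term per slide and a term for RA or no RA in place of schedule gave 3 calls among the 12 probes. In that fit 2547 of 23999 tested probes were called, and all these calls rest on that 1 Mock array. Meis1 then rose by 7.12 (limma, adjusted p = 4.02e-06) and Pbx2 by 0.87 (limma, adjusted p = 0.0204), whereas Meis2 gave 2.32 (adjusted p = 0.108) and Pbx3 -0.44 (adjusted p = 0.53).

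**Figure D2:**
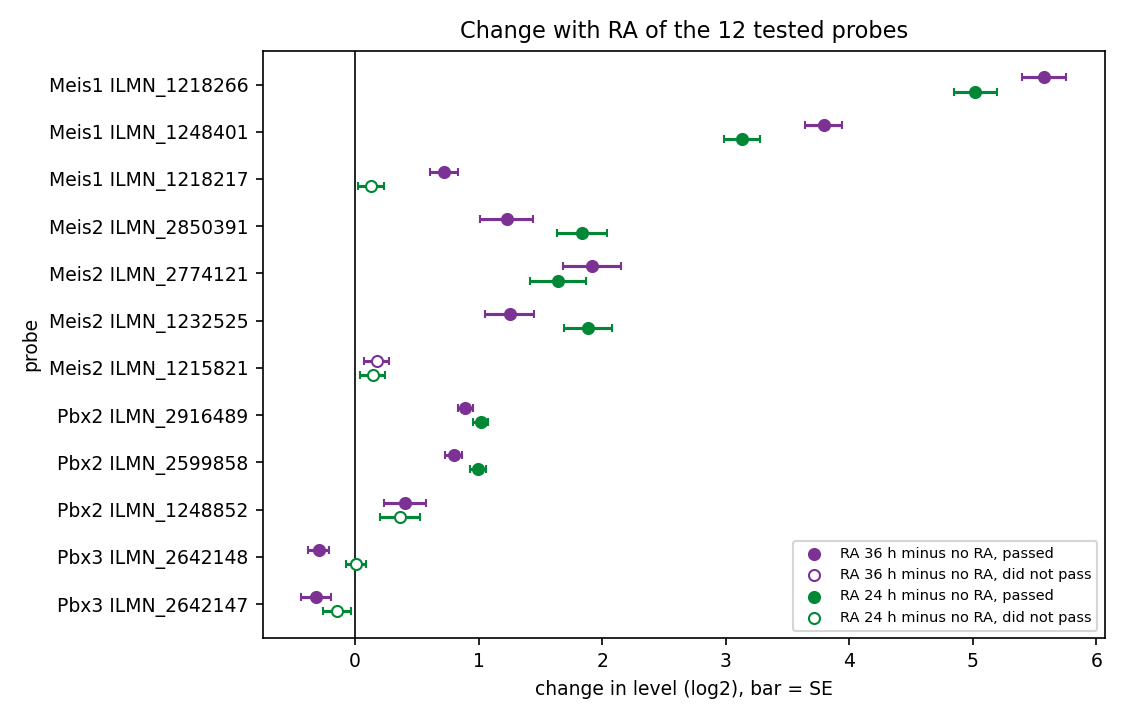
Change in log2 level (x axis, bars are SE) of the 12 tested probes (y axis) for RA 36 h minus no RA and RA 24 h minus no RA from the additive fit. Filled points passed an adjusted p of 0.05. The 2 brighter Meis1 probes lie between 3.13 and 5.58 and the dim one at 0.72 and 0.13, the Meis2 and Pbx2 probes between 0.14 and 1.92, and the Pbx3 probes between -0.32 and 0.01.

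Between the RA schedules, the additive fit gave lower Meis1 at 24 h, and higher Meis2 on 2 of its 3 bright probes. With RA for 24 h, Meis1 was lower than with RA for 36 h on all 3 probes, by 0.56 ± 0.18 (SE) for ILMN_1218266 (limma, adjusted p = 0.0157), 0.66 ± 0.15 for ILMN_1248401 and 0.59 ± 0.11 for ILMN_1218217. For the brightest probe the difference was negative in all 11 matched treatments and smallest in Mock (-0.21). For ILMN_1248401 the Mock pair went the other way (0.28). Meis2 was higher at 24 h on ILMN_2850391 (0.61 ± 0.21, limma adjusted p = 0.0249) and ILMN_1232525 (0.64 ± 0.20), but not on ILMN_2774121 (-0.28 ± 0.24, limma adjusted p = 0.372). That probe was lower at 24 h in 9 of 11 matched treatments, with Mock at -1.145. The Mock pair again differed from the compounds for ILMN_2850391, at -0.26 against up to 0.75 for BAY 11-7082. For ILMN_2774121 with RA for 24 h, the 5 compound arrays of slide 3 lay between 9.74 and 10.63 and those of slide 4 between 9.48 and 9.98.

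Pbx3 ILMN_2642148 was 0.30 ± 0.08 higher at 24 h (limma, adjusted p = 0.00577) and Pbx2 ILMN_2599858 0.20 ± 0.07 higher (limma, adjusted p = 0.0295). In total 7 of 12 probes passed, 4 higher and 3 lower, where 19.8% of all tested probes were called higher and 17.6% lower. The time with a compound differs along with the time with RA, 36 h against 24 h, and no slide held both schedules, so RA time, compound time and slide cannot be told apart. With slide as a random block 3 of the 12 passed, where 5576 of 23999 tested probes were called. Neither Meis1 (-0.58, limma adjusted p = 0.0897) nor Meis2 (0.62, limma adjusted p = 0.117) passed on the brightest probe in that setting.

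Among other TALE homeobox genes and Pbx or Meis partners, 13 had a probe and 11 of these had a tested one (Irx4 and Irx6 did not). With RA for 36 h, 5 rose and 3 fell, where 26% of all tested probes were called higher and 29% lower. The risers were Irx2 (3.74 ± 0.13, SE), Irx3 (2.35 ± 0.30) and Irx5 (2.19 ± 0.28) of the Iroquois genes, which pattern neural tissue, Pknox2 (1.98 ± 0.11), a relative of the Meis genes, and Meis3 (0.57 ± 0.16). Tgif1 (-0.95 ± 0.08), Tgif2 (-0.39 ± 0.09), which encode repressors that bind Smad proteins, and Mkx (-1.30 ± 0.16), a tendon regulator, fell. Pbx4 (0.14), Pknox1 (-0.12) and Irx1 (0.25) did not pass. Irx1 was undetected on every array without RA and was tested only through its detection with RA. The list's median was 0.25, against -0.03 over all tested probes.

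With RA for 24 h, 3 of the 11 rose (Irx2 by 4.72, Pknox2 by 2.62 and Irx1 by 0.44), 3 fell (Tgif1, Mkx and Pknox1, at -1.36, -0.90 and -0.52) and 5 did not pass. Of all tested probes, 28.3% were called higher and 32% lower, and the counts of this list lie near those shares. Irx3 (0.56) and Irx5 (0.16) were among those that did not pass, although both were higher with RA on the Mock and CM arrays. Irx3 was at 11.861 with RA for 24 h against 9.638 without RA on Mock, and at 12.397 against 8.321 on CM. Irx5 was at 9.265 against 6.917 on Mock, and at 9.133 against 5.979 on CM. The compound means were 9.887 against 9.957 for Irx3 and 7.013 against 7.467 for Irx5. Between the RA schedules, Irx3 gave -1.79 ± 0.30 and Irx5 -2.02 ± 0.28 in the additive fit, lower at 24 h as Meis1 was. On Mock alone the levels at 24 h and 36 h were 11.861 and 11.846 for Irx3, and 9.265 and 9.533 for Irx5. Irx2 and Pknox2 were higher at 24 h by 0.98 ± 0.13 and 0.64 ± 0.11, as the brightest Meis2 probe was.

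**Figure D3:**
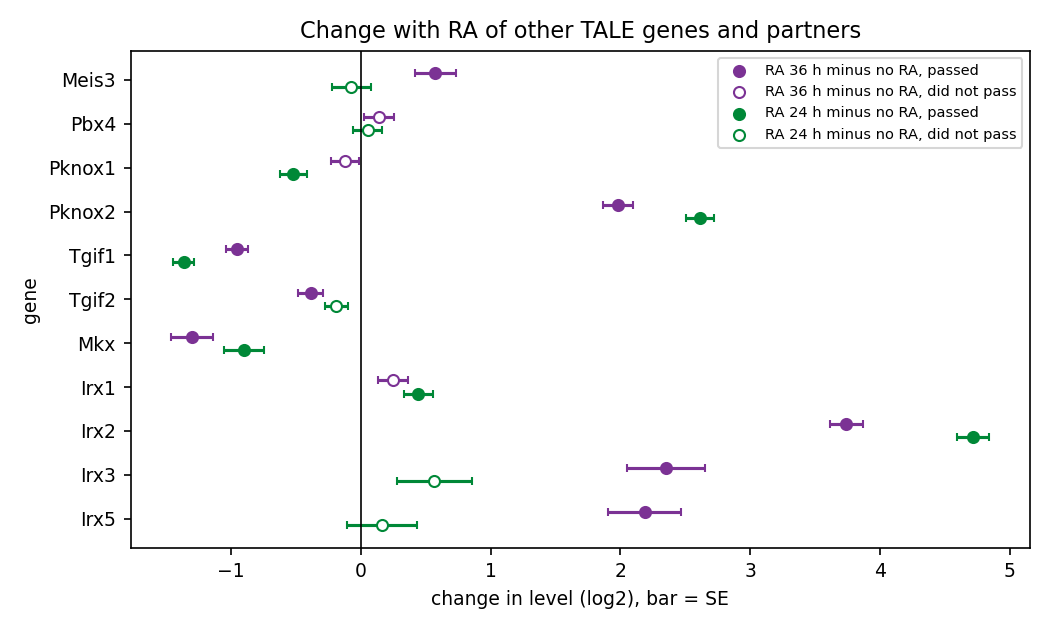
Change in log2 level (x axis, bars are SE) of 11 other TALE genes and partners (y axis) for RA 36 h minus no RA and RA 24 h minus no RA. Filled points passed an adjusted p of 0.05. Irx2 had the largest rise in both, Irx3 and Irx5 passed at 36 h and not at 24 h, and Tgif1 and Mkx fell in both. The 24 h values of Irx3 and Irx5 pool compound arrays with Mock and CM arrays, on which both genes were higher.

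Of 38 listed Hox genes, whose proteins partner with those of the Meis and Pbx genes, 22 had a tested probe. Hoxa3, Hoxa4, Hoxa7, Hoxb3, Hoxb6, Hoxb7, Hoxc6, Hoxc9 and Hoxd11 among them were undetected on every array without RA. They met the detection filter only through arrays with RA, which favours risers in the counts and medians below. With RA for 36 h, 16 rose and 2 fell, with a median change of 2.36, from Hoxa13 (-0.41) to Hoxd4 (6.88). In that contrast 26% of all tested probes were called higher and 29% lower. With RA for 24 h, 16 rose and 2 fell, with a median of 1.78, where 28.3% of all tested probes were called higher and 32% lower. Of 11 genes known in mouse as targets of Hox, Pbx and Meis complexes, 7 of them Hox genes that are also in the list above, 8 rose and 1 fell with RA for 36 h. Hoxb2, Hoxa2 and Hoxb1, whose hindbrain enhancers bind such complexes, rose by 4.06, 3.95 and 1.51. Pax6, an eye and neural tube regulator, rose by 2.12, Epha8 fell by 0.40, and Aldh1a2 (-0.09) and Egr2 (0.12) did not pass. Of 11 tested RA response genes, 7 rose and 1 fell with RA for 36 h, from Rarg (-1.74), an RA receptor, to Crabp2 (5.39), an RA-binding protein. Hoxa3, Hoxb3, Egr2 and Pax6 of the targets, and Stra6 and Nrip1 of the RA response genes, were likewise undetected on every array without RA.

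Marker genes of several cell types moved with RA, and their part in the changes of the Meis and Pbx genes was not tested. In bulk RNA fewer cells of a type and less RNA per cell cannot be told apart. With RA for 36 h, 8 of 9 epiblast markers fell and 1 rose, where 26% of all tested probes were called higher and 29% lower. In the same contrast 6 of 8 neural ectoderm markers rose (summed level 11796 to 16419 with RA for 36 h, against 7570 to 10194 without RA), as did 5 of 8 extraembryonic endoderm markers (4466 to 6228 against 1164 to 1899), 3 of 5 neural crest markers (5596 to 8939 against 130 to 356) and 5 of 7 fibroblast markers (2409 to 3199 against 1246 to 2133). Pou3f1 of the neural list (-1.33) and Thy1 of the fibroblast list (-2.78) fell. Of 5 mesoderm markers, 1 rose and 2 fell (220 to 342 against 146 to 282). Sox10, Foxd3, Tfap2a and Snai2 of the neural crest list, Gata4 and Sox7 of the endoderm list (Sox7 throughout, Gata4 in CM and Mock), and Pax6, Sox1 and Zic1 of the neural list were undetected without RA. Apart from Gata4 these were detected only with RA, as were Col3a1 and Pdgfra (fibroblast list) and Foxf1 and Meox1 (mesoderm list). They met the detection filter through arrays with RA, which favours risers in these counts. Ednrb had the largest change of the neural crest list (7.18), beside Sox10 (2.25) and Snai2 (0.47), and Foxd3 (0.19) and Tfap2a (0.08) did not pass. Irx3 and Pax6 stand both in the neural list and in lists above.

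CM set Meis2 apart when RA was absent. The CM arrays without RA had Meis2 ILMN_2850391 levels of 7.68 and 7.29, against 10.82 on the Mock array and 10.33 to 11.33 on the 10 compound arrays. The CM arrays lay far below every other array without RA, and below the compound arrays of their own slides by 3.30 and 3.52. In a model with a mean per treatment with and without RA, the CM minus Mock difference of Meis2 without RA was -3.34 ± 0.26 (SE), a level 10.1-fold lower in CM (limma, adjusted p = 9.67e-06). ILMN_2774121 was undetected on both CM arrays (5.05 and 5.11, against 8.94 in Mock), at least 12.4-fold lower than in Mock. The fit gave -3.86 (limma, adjusted p = 1.22e-05). ILMN_1232525 was also undetected on both (4.85 and 4.47, against 7.16 in Mock), at least 3.6-fold lower. The fit gave -2.50 (limma, adjusted p = 5.46e-05). These fitted values of ILMN_2774121 and ILMN_1232525 depend on values at background, and the bounds were not tested. These 3 Meis2 probes were the members that passed, 3 of 12, where 2.43% of all tested probes were called. In the authors' deposited table of log2 values the differences were -2.08 for ILMN_2850391 and -1.13 for ILMN_2774121, both called, and -0.44 for ILMN_1232525 (limma, adjusted p = 0.0622).

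With RA for 24 h the CM array was close to Mock for Meis2, at 12.04 against 11.93 for ILMN_2850391, and 9.55 against 9.58 for ILMN_2774121. This array had CM for 36 h, against 24 h for the CM arrays without RA. Between them, RA and time in CM cannot be told apart. No member probe passed for CM against Mock with RA 24 h (limma; 4 had an unadjusted p under 0.05), where 0.583% of all tested probes were called. In the authors' deposited log2 values Meis1 ILMN_1248401 passed in this contrast, higher in CM by 0.69 (limma, adjusted p = 0.0369). The difference of the CM effect with and without RA passed for 4 of 12 probes, where 0.392% of all tested probes were called. This fit takes the RA side of Mock from its RA 24 h and RA 36 h arrays with a shared schedule term, and groups of 1 array are assumed to vary like the other treatments. It gave 3.10 ± 0.37 (SE) for Meis2 ILMN_2850391 (limma, adjusted p = 0.00173), against 3.45 from the CM and Mock arrays with RA for 24 h and without RA alone. For ILMN_2774121 and ILMN_1232525 the fit gave 3.49 and 2.96 (limma, adjusted p = 0.00304 and 0.00173). Both were undetected in CM without RA, so these fitted sizes depend on values at background. The bounds from the CM and Mock arrays with RA for 24 h and without RA alone were at least 3.61 and at least 2.505, and were not tested. In the authors' deposited log2 values the fitted difference was 1.85 for ILMN_2850391 (limma, adjusted p = 0.00971), and 0.83 and 0.70 for the other two probes, which did not pass (limma, adjusted p = 0.376 and 0.0837). Meis2 ILMN_2850391 was 4.56 higher with RA for 24 h than without RA on the CM arrays, or 23.5-fold, and 1.11 higher on the Mock arrays, for which the fit over both RA schedules gave 1.46 ± 0.27.

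Meis1 was the fourth probe. ILMN_1218266 was undetected on both CM arrays without RA (4.97 and 4.91, against 5.72 in Mock), and the CM array with RA for 24 h was the highest of all 36 arrays at 11.87, against 11.33 in Mock. The rise with RA within CM was at least 94.4-fold. With the detection limit in place of the undetected values, the difference of the CM effect with and without RA was at least 0.95 from these arrays, which was not tested. The fitted difference was 1.55 (limma, adjusted p = 0.0401) and depends on values at background. Without either CM array of the schedule without RA, the difference no longer passed (limma, adjusted p = 0.0941 and 0.105), and in the authors' deposited log2 values it was 0.82 (limma, adjusted p = 0.149).

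Over all schedules, CM against Mock gave 4 calls among the 12 probes, 3 lower and 1 higher, where 1.76% of all tested probes were called lower and 0.871% higher. Meis2 gave -2.24 ± 0.42 (SE), -2.53 ± 0.46 and -1.46 ± 0.40 on its 3 bright probes, and Pbx2 ILMN_2599858 rose by 0.50 ± 0.14 (limma, adjusted p = 0.0478). Without either CM array of the schedule without RA 2 probes passed, and without the CM array with RA for 24 h 5 passed, Meis1 ILMN_1218266 among them (-1.18, limma adjusted p = 0.0103). Of all 23999 tested probes, 290 and 355 passed with 1 CM array without RA left out, and 1057 without that with RA. Of the other TALE genes, Pknox2 alone passed for CM against Mock (-1.32 ± 0.22 over all schedules and -1.95 ± 0.22 without RA), with levels of 6.001 and 6.006 in CM without RA, against 7.96 in Mock. Of the 22 Hox genes, Hoxa2 (-1.81) and Hoxa5 (-1.66) were lower in CM than in Mock without RA, and Hoxb5, Hoxb6 and Hoxb7 were higher with RA for 24 h. Of 7 fibroblast markers, 2 were lower in CM than in Mock over all schedules, and the summed fibroblast level was 1246 and 1445 in CM without RA, against 1824 in Mock. Col1a2, Col3a1 and Pdgfra were undetected on both CM arrays, and Col3a1 and Pdgfra also on every Mock and compound array without RA. Summed epiblast marker levels were 52807 and 52961 on these CM arrays, against 40350 in Mock and 38388 to 46403 in the compounds, and their part in the Meis2 difference was not tested.

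**Figure D4:**
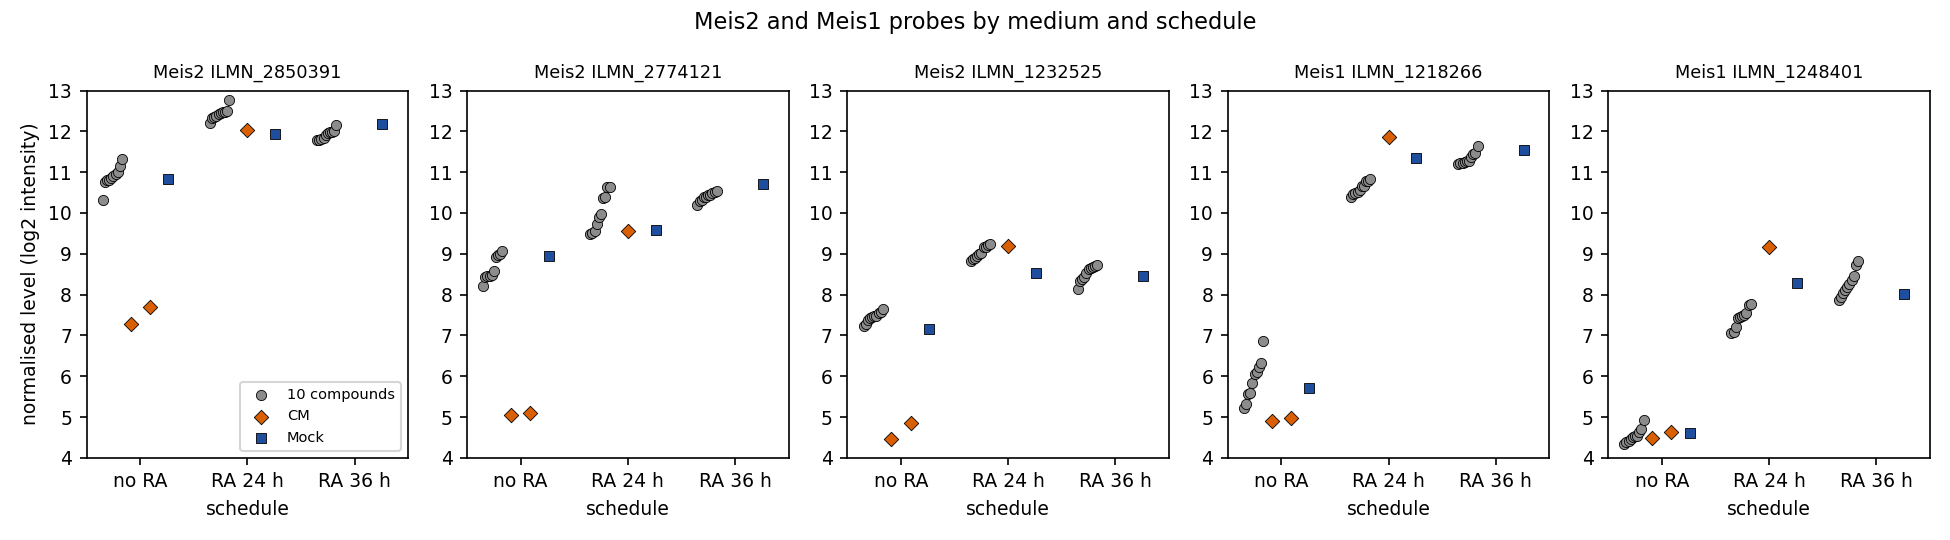
Normalised log2 level (y axis) of 3 Meis2 and 2 Meis1 probes by schedule (x axis), with the 10 compounds (grey circles), CM (orange diamonds) and Mock (blue squares) side by side. Without RA the CM arrays of Meis2 lie 3.30 and 3.52 below the compound means of their slides for ILMN_2850391, and with RA for 24 h the CM array lies highest for both Meis1 probes.

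The compound arrays of the RA 24 h schedule had less Meis1 than its Mock and CM arrays. The 10 compound arrays had Meis1 ILMN_1218266 levels of 10.38 at the lowest, 10.61 at the median and 10.84 at the highest, against 11.33 in Mock and 11.87 in CM. No compound array reached either. The difference was -0.99 ± 0.24 (SE, limma, adjusted p = 0.00733) for this probe and -1.31 ± 0.20 (limma, adjusted p = 2.06e-05) for ILMN_1248401, 2 of 12 probes, where 6.89% of all tested probes were called. Within slide 3, all 5 compound arrays lay below Mock, by 0.79 on average, and within slide 4 all 5 lay below CM, by 1.18. At RA 36 h the corresponding within-slide difference from Mock was -0.19. Without the CM arrays the Meis1 difference at RA 24 h was -0.72 (limma, adjusted p = 0.282).

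Other genes moved in the same contrast. Of 22 Hox genes, 11 were lower on the RA 24 h compound arrays, among them Hoxb6 (-3.17), Hoxb7 (-2.50) and Hoxd4 (-2.11), and none was higher. The share of all tested probes called in either direction was 6.89%. Irx3 (-2.24), Irx5 (-2.19) and Meis3 (-0.78) were lower, and Irx2 (0.94) and Mkx (0.85) higher. Of 9 epiblast markers, 6 were higher on the compound arrays (summed level 8343 to 10692, against 4707 in Mock and 3573 in CM), and their part in the Meis1 difference was not tested.

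Without RA, the compound arrays had more Meis2 than the pooled Mock and CM arrays, by 2.29 ± 0.33, 2.29 ± 0.40 and 1.96 ± 0.26 on the 3 bright probes, 3 of 12, where 1.05% of all tested probes were called. This rests on CM: without the CM arrays it was 0.07 for ILMN_2850391 (limma, adjusted p = 0.944). The compound effect differed between RA 24 h and no RA for 4 of 12 probes, where 4.25% of all tested probes were called. It was -1.70 ± 0.32 and -1.28 ± 0.26 for the 2 brighter Meis1 probes, and -1.85 ± 0.51 and -1.77 ± 0.40 for Meis2 ILMN_2850391 and ILMN_1232525. Time with a compound, Mock or CM also differed, 36 h at RA 24 h against 24 h without RA. RA and that time cannot be told apart here. Meis1 ILMN_1248401 was undetected on every array without RA, and Meis1 ILMN_1218266 and Meis2 ILMN_1232525 on both CM arrays without RA, so the sizes fitted for these depend on values at background. In the authors' deposited log2 values 2 of 12 passed, where 1117 of 23999 tested probes were called. Meis2 ILMN_2850391 gave -1.02 there (limma, adjusted p = 0.0858). Without the CM arrays none of the 12 passed, and the value for Meis2 ILMN_2850391 was 0.44.

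No single compound shifted a member past the threshold. Against Mock over the 3 schedules, the brightest Meis1 probe gave -0.54 ± 0.35 (SE, Dorsomorphin dihydrochloride) to 0.08 ± 0.35 (Docetaxel), and that of Meis2 -0.04 ± 0.41 (Docetaxel) to 0.28 ± 0.41 (BAY 11-7082). For Pbx2 the range was -0.12 ± 0.12 (Forskolin) to 0.12 ± 0.12 (SU5402), and for Pbx3 -0.05 ± 0.16 (Docetaxel) to 0.22 ± 0.16 (Rapamycin). Over all 12 probes and 10 compounds, 0 of 120 values passed (limma) and 1 had an unadjusted p under 0.05, Pbx2 ILMN_1248852 with BAPTA-AM at 0.80 ± 0.33. Among all tested probes 0% were called for each compound other than Docetaxel, for which 0.0792% were, and 0% for the mean of the compounds, which gave -0.24 ± 0.26 for Meis1 and 0.10 ± 0.30 for Meis2. Each compound had 3 arrays, and the SE of 0.35 for Meis1 and 0.41 for Meis2 sets the size of change that could pass. The SE rests on the residual SD over all 36 arrays, CM included, of 0.46 for Meis1 and 0.545 for Meis2. Within a schedule the 10 compound arrays had an SD of 0.145 to 0.502 for Meis1 and 0.115 to 0.264 for Meis2.

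The difference of a compound's effect with and without RA also passed for 0 of 120 values (limma), and 13 had an unadjusted p under 0.05, where 5.17% to 8.9% of all tested probes did for the single compounds. Of the 13, 6 were Meis1 ILMN_1218266, all negative, and 5 were Pbx2 ILMN_1248852, all positive. The lowest p among them belonged to Docetaxel on Meis1 ILMN_1218266, at -1.59 ± 0.31 (limma, adjusted p = 0.148). All compounds share the same Mock arrays here. Without RA, Pbx2 ILMN_1248852 was detected on 5 of the 10 compound arrays. Meis1 ILMN_1218266 was detected on 9 of the 10, with levels of 5.23 to 6.86 over all 10. The fitted sizes of both probes therefore depend in part on values near background. The share of all tested probes called was 0% for 9 compounds and 0.00417% for Forskolin.

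**Figure D5:**
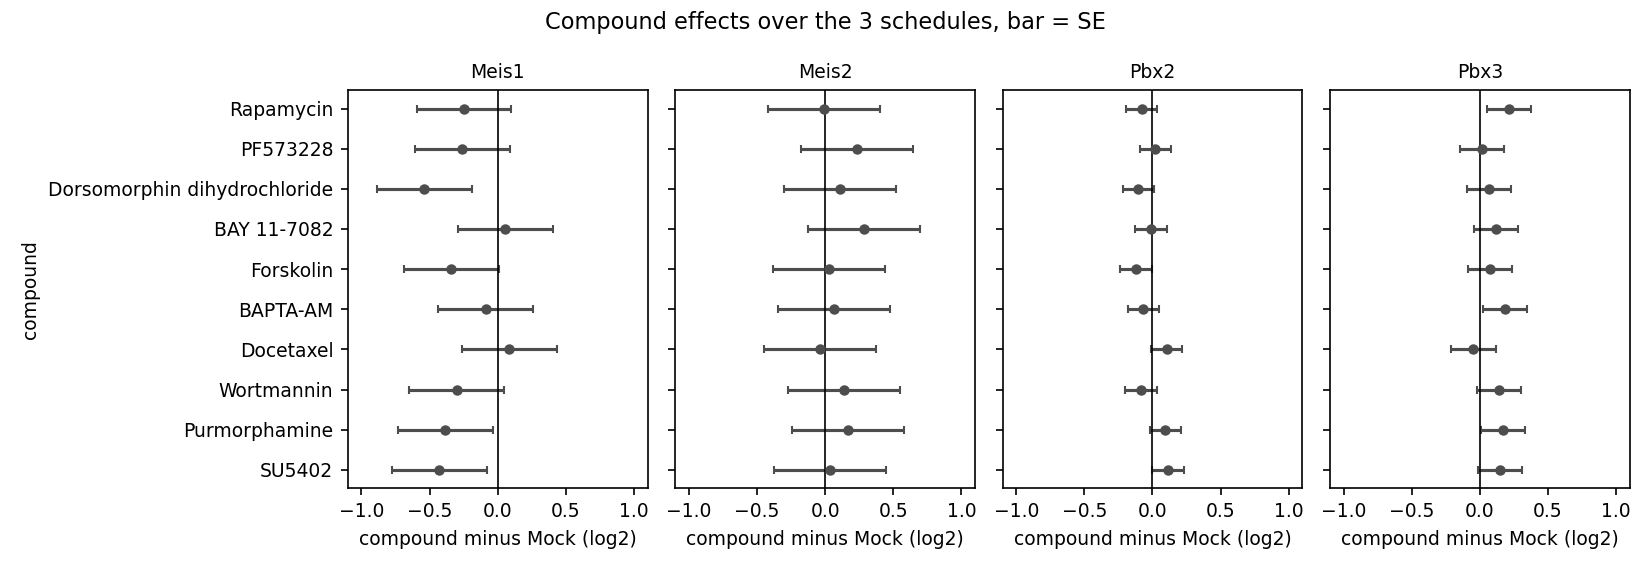
Difference from Mock in log2 level over the 3 schedules (x axis, bars are SE) for the brightest probe of each gene, by compound (y axis). No value passed an adjusted p of 0.05. The points lie between -0.54 and 0.28 and the SE is widest for Meis2, at 0.41.

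For each gene the 5 probes most like its brightest one were named by Pearson r over the 36 arrays, which share schedule and slide, so the values are descriptions. For Meis1 these were Ptn (0.992), a growth factor, Spsb4 (0.990), Lama1 (0.990), a laminin chain that is also in the endoderm list, Crabp2 (0.989) and Zadh2 (0.989). Within schedules the r of Meis1 with Ptn was 0.825 without RA (13 arrays), 0.805 with RA for 24 h (12) and -0.12 with RA for 36 h (11). For Meis2 they were Gbx2 (0.958), a regulator of the anterior hindbrain, Sall3 (0.931), Pknox2 (0.923), Rgma (0.922) and Dlk1 (0.921). The r of Meis2 with Gbx2 was 0.946 without RA, where the 2 CM arrays are the low points, 0.544 with RA for 24 h and -0.39 with RA for 36 h. For Pbx2 they were Akr1c19 (0.956), Sfrp5 (0.951), Ski (0.950), Cyb5b (0.948) and Fgfr3 (0.946), with -0.17, -0.19 and 0.518 for Fgfr3 within the schedules without RA, RA 24 h and RA 36 h. For Pbx3 they were Cnot2 (0.834), Orc5, Tomm6, Nup107 and Seh1l (0.804 to 0.815), and with Cnot2 the r within schedules was 0.924, 0.756 and 0.475 in the same order.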

How the data were processed

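Total RNA was hybridised to Illumina MouseWG-6 v2 bead arrays, 36 in all, mapped to their schedule and treatment by their titles. The intensities were deposited as raw values by the authors, with a detection p-value per probe and array per the file headers; 30.2% to 36.6% of an array's values lie below 0. The authors also deposited log2 values, which they state were made by variance stabilisation and robust spline normalisation in lumi, version not stated; these were an alternative.

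Raw intensities were normalised with neqc of limma 3.58.1 (R 4.3.3; background from the detection p-values, offset 16, quantile normalisation). Fits used lmFit and eBayes on the 23999 kept probes, with p adjusted over all of them and 0.05 as the threshold. Schedule and treatment were additive (22 residual degrees of freedom), compounds were set against Mock and CM by schedule (30), and differences with RA came from a mean per treatment with and without RA (11). Where a probe was undetected on the whole dim side, the fold is a lower bound from each array's lowest detected level. Probe genes are those of GEO's platform annotation (34885 probes with 1 symbol, 18 with several, 10378 with none). All member probes are given, the brightest tested probe leads, and TALE genes with a tested probe, the extremes among Hox genes and the 5 most similar probes are named. Targets and RA response genes named from within their lists were chosen after their values were seen. The members and lists were chosen with earlier results of these data known. Alternatives were other scalings, probe filters, the slide as a block and left-out arrays. The number of arrays limits the precision.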

Additional observations from a re-analysis of the deposited data

Results flagged for a closer look

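The effect of CM against Mock differed with and without RA by a direct test for 4 probes: by 1.553 for Meis1 ILMN_1218266 and by 3.097, 3.488 and 2.958 for Meis2 ILMN_2850391, ILMN_2774121 and ILMN_1232525, on the log2 scale. These are fitted values. CM was given for 36 h with RA and for 24 h without it, so RA and time in CM cannot be told apart. The side with RA rests on 1 CM array (RA 24 h) and 2 Mock arrays (1 each of RA 24 h and RA 36 h), and the side without RA on 2 CM arrays and 1 Mock array. Their spread is taken mostly from the RA 24 h and RA 36 h arrays of the other treatments. Apart from ILMN_2850391, these probes were undetected on both CM arrays without RA, so the fitted sizes depend on values at background.

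The difference of the compound arrays from Mock and CM also differed between RA 24 h and no RA by a direct test, by -1.696 and -1.276 for Meis1 ILMN_1218266 and ILMN_1248401 and by -1.845 and -1.771 for Meis2 ILMN_2850391 and ILMN_1232525. These values use the same CM arrays as the ones above, and none of the 12 tested probes passed without them. Time with a compound, Mock or CM differed as well, 36 h at RA 24 h against 24 h without RA.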

How the results depend on the processing

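The calls of the brightest Meis1, Meis2 and Pbx2 probes for either RA schedule against no RA held under each alternative run, except that Meis2 did not pass at RA 36 h with a fixed term per slide and RA or no RA as the contrast (2.32, limma adjusted p = 0.108), where 3 of 12 probes passed in place of 11. RA 24 h against RA 36 h gave 3 calls in place of 7 with slide as a random block (consensus correlation within a slide 0.1415). CM against Mock gave 2 calls in place of 4 with no filter on low probes, 1 with slide as a fixed block with a term for RA (chosen after seeing the data), and 2 to 5 with 1 CM array left out. The summed compound calls were 7 in place of 0 with slide as a fixed block in place of schedule, which by construction sets the Mock array without RA among arrays with RA, and 0 with a term for RA. Compounds against Mock and CM gave 0 calls at RA 24 h without the CM arrays (2 with them), and without RA gave 0 calls without CM and 6 without Mock (3 with both); these were chosen after seeing the data. The difference between those effects gave 2 calls in the deposited log2 values and 0 without CM, in place of 4, and Meis2 turned to 0.435 without CM. The CM effect with RA minus that without gave 1 call in the deposited values in place of 4 (Meis2 ILMN_2850391), where the log2 changes of Meis1 and Pbx2 with RA were also smaller; the cause was not tested. Over all tested probes, the calls moved by over 1.5 times for RA 36 h against no RA (2547 with the fixed block, against 13189), RA 24 h against RA 36 h (5576 with the random block, against 8974), the mean of the compounds (318 with slide in place of schedule, against 0; 1 to 8 under 5 other settings), CM against Mock (290 and 355 without a CM array without RA, 1057 without that with RA, 75 with slide and RA, against 632) and the class contrasts (825 against 1653 at RA 24 h and 226 against 1021 for the difference without CM; 56 without CM, 1548 without Mock and 384 in the deposited values against 251 without RA). Schedules were matched by treatment through the treatment term. Beyond that match, no paired analysis was possible because only the CM arrays without RA carry replicate numbers. Fitted sizes of probes undetected in a group depend on values at background.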
